A study of Mus musculus with 12 samples.

Results

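Fatty acid oxidation genes and targets of the nuclear receptor PPAR-alpha were followed through 12 kidney arrays of female mice. The set is a list of 38 genes chosen by name, and 37 of them were measured among 19938 genes, each by the probe set with the highest mean among those with a single gene symbol. Acsl1 was not analysed here, because no probe set carried its symbol alone. There were 3 groups of 4 arrays, all of total RNA from whole kidney and all from mice on standard diet for 5 to 8 weeks. WT FGF23 was wild type given 1 intraperitoneal dose of recombinant FGF23, the bone hormone that lowers renal phosphate reabsorption, at 500 ng per g body weight. WT vehicle was wild type given 100 µl saline, and KL null was Klotho null, lacking the co-receptor of FGF23, also given saline. Every mouse was killed 1 hour after injection. The strain is labelled C57BL/6 for wild type and 129/SvEv/C57BL/6 for KL null, although the treatment protocol calls the wild-type mice littermates of the KL null mice. The labels do not settle this, and as labelled, genotype and strain cannot be told apart. The labels number 4 replicates a group without stating that each was its own mouse, and p-values therefore measure the spread between these samples, which may be technical.

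Fatty acids enter the cell through carriers such as Cd36, are joined to coenzyme A, and cross into mitochondria as carnitine esters. There a spiral of dehydrogenase, hydratase, second dehydrogenase and thiolase reactions shortens the chain, and electrons pass to the electron transfer flavoprotein. Very long chains are first shortened in peroxisomes. PPAR-alpha, with its coactivator PGC-1alpha, is a transcriptional activator of many of these genes, and the proximal tubule is the part of the kidney known for its reliance on fatty acids as fuel.

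Values are log2 RMA signals, on which a difference of 1 is a doubling. Kl, the targeted gene, measured 10.61 ± 0.13 (SD, n = 4) in WT vehicle, 10.51 ± 0.08 in WT FGF23 and 9.72 ± 0.07 in KL null. It was 1.85-fold lower in KL null than in WT vehicle (limma, adjusted p = 1.75e-05) but was not at the bottom of the scale, and whether its probes lie in the deleted part was not tested. Slc34a1 and Lrp2, phosphate transporter and endocytic receptor of the proximal tubule, gave signals of 12.93 and 12.72 in WT vehicle. Signals of different probe sets are not on 1 scale, so these values are given as a description of the kidney label and not as a test of it. Array standard deviations were 2.166 and 2.167 in WT FGF23 replicates 1 and 2 and 2.195 to 2.281 in the other 10 arrays.

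The stretches upstream of the 5 members that fell in KL null are shown with that of Fabp1, the only member whose stretch held the relaxed tandem motif described next. They were chosen after the values were seen, are credited to RefSeq (GRCm38.p6), run 5′ to 3′ on the gene's strand, and end at the base before the annotated start. Capitals mark matches to AGGTCA, the half-site of nuclear receptors, or to AGGNCANAGGNCA, a relaxed tandem of it with 1 spacer base, on either strand. The windows are Acadm chr3:153944644-153944893 (minus strand), Acads chr5:115119347-115119596 (minus strand), Ehhadh chr16:21787835-21788084 (minus strand), Cd36 chr5:17835897-17836146 (minus strand), Acot3 chr12:84051894-84052143 (plus strand), Fabp1 chr6:71199629-71199878 (plus strand). Acot3 has 2 windows and the one with the lower coordinate is shown.
Acadm: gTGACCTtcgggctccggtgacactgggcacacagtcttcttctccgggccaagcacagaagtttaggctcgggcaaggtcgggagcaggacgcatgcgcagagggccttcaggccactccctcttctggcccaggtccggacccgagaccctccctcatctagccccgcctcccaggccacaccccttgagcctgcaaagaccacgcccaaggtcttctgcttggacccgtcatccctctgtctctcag
Acads: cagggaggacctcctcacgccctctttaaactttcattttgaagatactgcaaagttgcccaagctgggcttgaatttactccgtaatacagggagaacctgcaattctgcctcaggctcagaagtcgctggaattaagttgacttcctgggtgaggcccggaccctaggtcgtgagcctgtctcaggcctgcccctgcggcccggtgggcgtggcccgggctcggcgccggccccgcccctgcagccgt
Ehhadh: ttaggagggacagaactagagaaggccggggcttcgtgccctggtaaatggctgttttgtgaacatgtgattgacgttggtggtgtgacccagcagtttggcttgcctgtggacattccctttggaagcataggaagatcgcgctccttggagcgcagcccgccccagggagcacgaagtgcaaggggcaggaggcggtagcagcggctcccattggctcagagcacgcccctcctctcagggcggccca
Cd36: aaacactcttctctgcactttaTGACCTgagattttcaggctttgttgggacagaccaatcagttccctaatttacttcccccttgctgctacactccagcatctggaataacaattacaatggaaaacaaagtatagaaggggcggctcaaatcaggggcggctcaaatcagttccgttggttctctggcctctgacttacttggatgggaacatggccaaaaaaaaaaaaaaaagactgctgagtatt
Acot3: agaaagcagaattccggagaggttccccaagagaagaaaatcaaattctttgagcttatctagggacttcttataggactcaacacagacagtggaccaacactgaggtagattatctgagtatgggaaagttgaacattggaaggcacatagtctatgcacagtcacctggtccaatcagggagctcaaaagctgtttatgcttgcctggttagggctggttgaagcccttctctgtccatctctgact
Fabp1: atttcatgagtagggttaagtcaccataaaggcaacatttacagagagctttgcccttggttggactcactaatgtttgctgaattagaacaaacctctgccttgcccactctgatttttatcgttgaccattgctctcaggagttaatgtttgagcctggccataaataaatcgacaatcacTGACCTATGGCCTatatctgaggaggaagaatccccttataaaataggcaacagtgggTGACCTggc

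Of the 37 measured members, 32 had a window among the 32851 of the table. The strict tandem AGGTCANAGGTCA was found in 0 of those 32 and in 0.0335% of all windows. The relaxed tandem was in 1 member (3.12%) and in 0.338% of all windows. In Fabp1 it lay on the minus strand, with its first base 67 bases before the start, and it overlaps a half-site match. AGGTCA was in 9 members (28.1%) and 14% of all windows. Besides Acadm (249 bases before the start), Cd36 (228) and Fabp1 (67 and 9), these were Acadvl, Acot12, Acot4, Cpt1a, Echs1 and Ucp3. The stretches of Acads, Ehhadh and the Acot3 window shown held no match to either marked pattern. In all, 9 patterns were searched. The other 6 were NGGTCANAGGTCA (0 members, 0.0609% of windows), GGNCANAGGNCA (2 members, 0.694%), AGGNCA (26 members, 51.3%), CANGTG (13 members, 39.5%), CCAAT (16 members, 33.8%) and CACGTG (1 member, 6.02%). Each match is a description of letters only.

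An hour after FGF23, no member passed the limma test against vehicle in wild type. Across all genes 17 of 19938 passed (0.0853%), so a count of 0 among 37 lies near that background. At an unadjusted p below 0.05 there were 4 members, all lower, where 15.4% of all genes lay below that level. Of all genes at that level, 2072 were higher and 991 lower. In the top 25% of mean value, 78 were higher and 478 lower. The 4 members were Acot3, Acot4, Crot and Etfdh. Arrays of the 2 groups did not overlap for 5 members, these 4 and Acadl, all lower after FGF23, against 7.01% of all genes. In sign, 28 of 37 members had a lower mean after FGF23, with a median difference of -0.08. Over all genes the median was 0.04 and 40.9% were lower. Among genes in the top 25% of mean value, where 32 of the members lie, it was -0.06 and 71.0% were lower. After a further quantile normalization the members' median was -0.03. The 95% interval of the FGF23 difference lay within 1 log2 unit of 0 for all 37 members and within 0.5 for 29.

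In KL null against WT vehicle, 5 of 37 members fell and none rose (13.5%), against 8.01% of all genes called and 4.44% called lower. In the top 25% of mean value, where 32 of the members lie, 15.1% of genes were called, with 565 of 4987 lower and 189 higher. The 5 were Acadm and Acads, mitochondrial dehydrogenases of medium and short acyl chains, Ehhadh, a peroxisomal bifunctional enzyme, Cd36, and Acot3, a peroxisomal acyl-CoA thioesterase. The members' median difference was 0.01, with 19 higher and 18 lower means, and that of all genes was 0.02. A further 32 members did not pass. Of the 12 members at an unadjusted p below 0.05, 4 were higher and 8 lower. Arrays of KL null and WT vehicle did not overlap for 6 members, 1 higher and 5 lower. Among all genes 13.8% did not overlap in this comparison, so separation of the arrays alone sets no member apart. How the counts divide depended on scaling, with 2 rising and 4 falling after a further quantile normalization and 0 and 7 with arrays centred on their medians. Leaving out 1 array gave counts from 1 (without KL null replicate 3, or without WT vehicle replicate 3) to 9 (without KL null replicate 1).

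**Figure D1:**
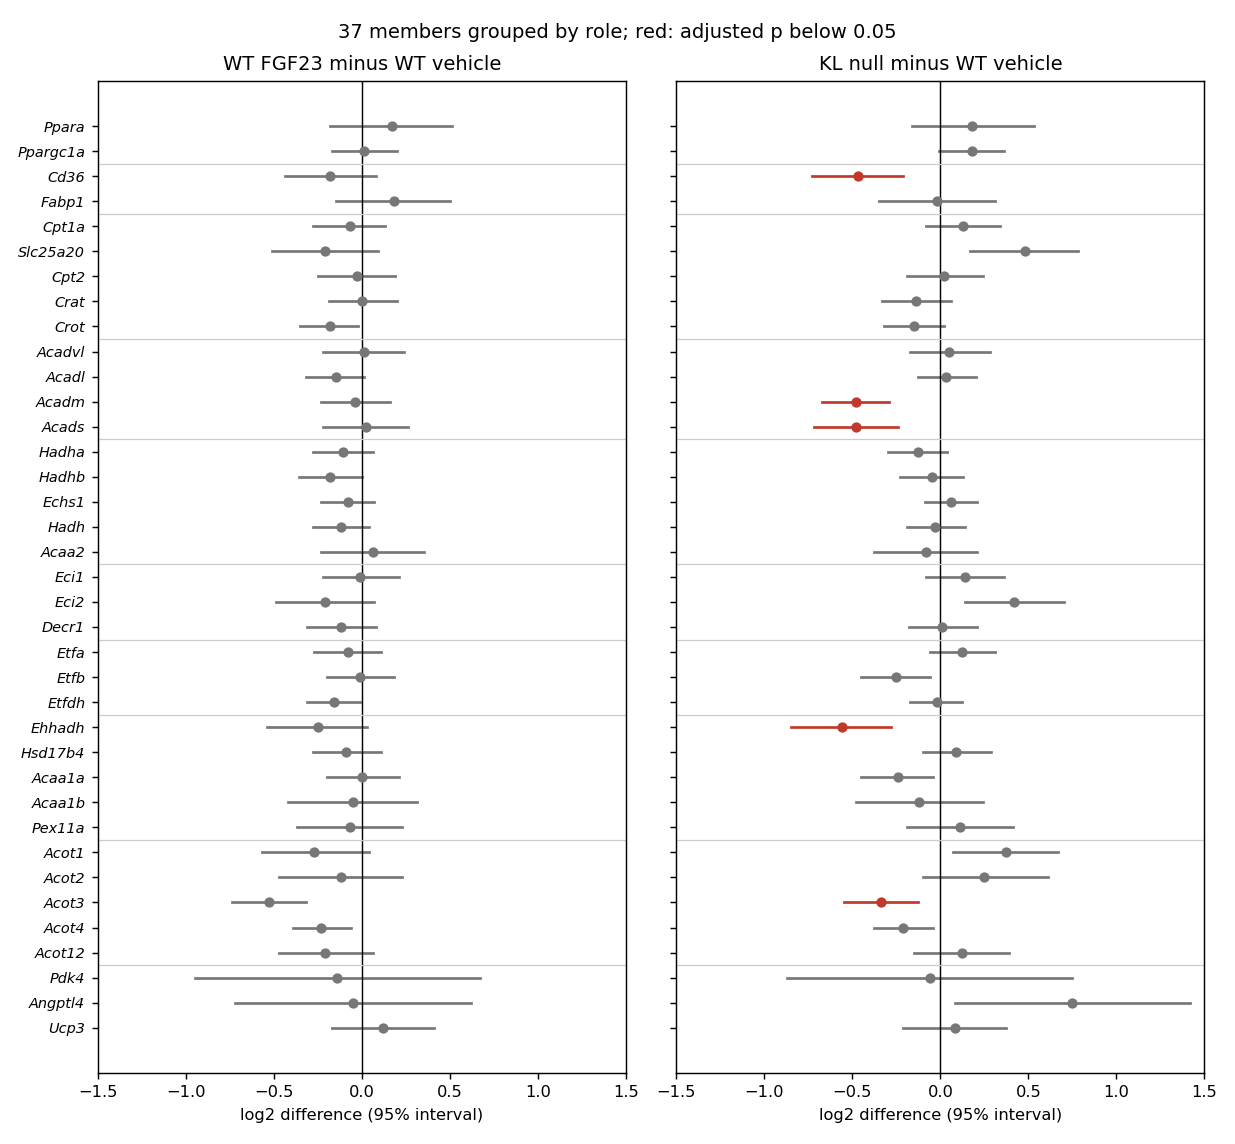
Log2 difference from WT vehicle (horizontal axis) with its 95% interval for each of the 37 members, grouped by role, after FGF23 (left) and in KL null (right). Red marks adjusted p below 0.05, which 0 members reached on the left and 5 on the right, all of these lower.

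The receptor gene Ppara measured 9.35, 9.37, 8.96 and 9.33 in WT vehicle, 9.64, 9.59, 9.14 and 9.30 in WT FGF23, and 8.94, 9.46, 9.74 and 9.61 in KL null. All 3 groups overlapped. It differed from vehicle by 0.17 (SE 0.161) after FGF23 and by 0.18 (SE 0.161) in KL null, with limma adjusted p of 0.616 and 0.584. Ppargc1a, which encodes PGC-1alpha, measured 9.80, 9.84, 9.69 and 10.07 in WT vehicle, 9.97, 9.87, 9.78 and 9.83 in WT FGF23, and 10.07, 10.03, 10.06 and 9.95 in KL null. Its differences were 0.01 (limma adjusted p = 0.955) and 0.18 (0.263). A second Ppargc1a probe set gave -0.26 after FGF23, opposite in sign to the one used, and 0.20 in KL null. Neither regulator passed in either comparison.

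Among uptake and binding genes, the fatty acid carrier Cd36 measured 10.16, 9.98, 10.01 and 9.93 in WT vehicle and 9.37, 9.53, 9.65 and 9.66 in KL null, so each KL null array lay below each vehicle array. It fell 1.38-fold (log2 -0.47, SE 0.122, limma adjusted p = 0.0289). The call was lost in 7 of 25 alternatives, among them without KL null replicate 1 (0.0668), 2 (0.0700) or 3 (0.0535) and without WT vehicle replicate 1 (0.0951) or 3 (0.0727). In WT FGF23 it measured 9.45, 9.81, 10.03 and 10.06, with replicates 1 and 2 below every vehicle array. Fabp1, the liver type fatty acid binding protein, was dim, between 3.08 and 3.91 on all 12 arrays, and is with Ucp3 1 of 2 members in the lowest 25% of all genes.

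Of the 5 carnitine genes, none passed against vehicle. Slc25a20, the carrier that exchanges acylcarnitine for carnitine across the inner mitochondrial membrane, measured 8.83, 8.74, 8.95 and 9.07 in WT vehicle. It was 8.88, 8.97, 8.51 and 8.38 in WT FGF23 and 9.21, 9.26, 9.30 and 9.72 in KL null. All 4 KL null arrays lay above all 8 wild-type arrays. Its difference from vehicle in KL null was 0.48 (SE 0.141, limma adjusted p = 0.0516), just outside the threshold. Cpt1a, which forms the acylcarnitine and is the regulated entry step, measured 10.61, 10.67, 10.74 and 10.76 in WT vehicle. It measured 10.59, 10.74, 10.55 and 10.60 in WT FGF23 and 10.53, 10.98, 10.86 and 10.93 in KL null, with differences of -0.07 and 0.13 (limma adjusted p = 0.713 and 0.506). Crot, the peroxisomal octanoyltransferase, measured 10.95, 10.93, 10.89 and 11.02 in WT vehicle, 10.66, 10.70, 10.82 and 10.87 in WT FGF23, and 10.87, 10.83, 10.66 and 10.83 in KL null. Both other groups lay below vehicle on every array. The differences were -0.18 (SE 0.0796) after FGF23 and -0.15 in KL null, with limma adjusted p of 0.299 and 0.304. Cpt2 and Crat differed from vehicle by at most 0.14 in size.

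Of the 4 dehydrogenases of the first step, 2 fell in KL null. Acadm measured 12.60, 12.52, 12.54 and 12.42 in WT vehicle, 12.27, 12.47, 12.55 and 12.65 in WT FGF23, and 12.08, 11.92, 12.08 and 12.09 in KL null. Every KL null array lay below all 8 wild-type arrays. It fell 1.39-fold in KL null (log2 -0.48, SE 0.0895, limma adjusted p = 0.00443) and passed in all 25 alternatives. Acads measured 9.13, 9.18, 9.28 and 8.90 in WT vehicle, 9.32, 9.26, 8.87 and 9.13 in WT FGF23, and 8.84, 8.55, 8.56 and 8.61 in KL null. It too lay below all wild-type arrays in KL null, where it fell 1.40-fold (log2 -0.48, SE 0.112, limma adjusted p = 0.0159). That call was lost without KL null replicate 2 (0.0512) or 3 (0.0557) or WT vehicle replicate 3 (0.0637). Acadl and Acadvl, for long and very long chains, differed from vehicle in KL null by 0.03 and 0.05. After FGF23 Acadm and Acads differed by -0.04 and 0.02. Acadl differed by -0.15 there, at 10.30 to 10.44 against 10.47 to 10.56 in vehicle. Its arrays did not overlap between these groups, and it did not pass.

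KL null lay beyond all 8 wild-type arrays for 3 members in all, Slc25a20 above and Acadm and Acads below, where 8.13% of all genes did so.

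**Figure D2:**
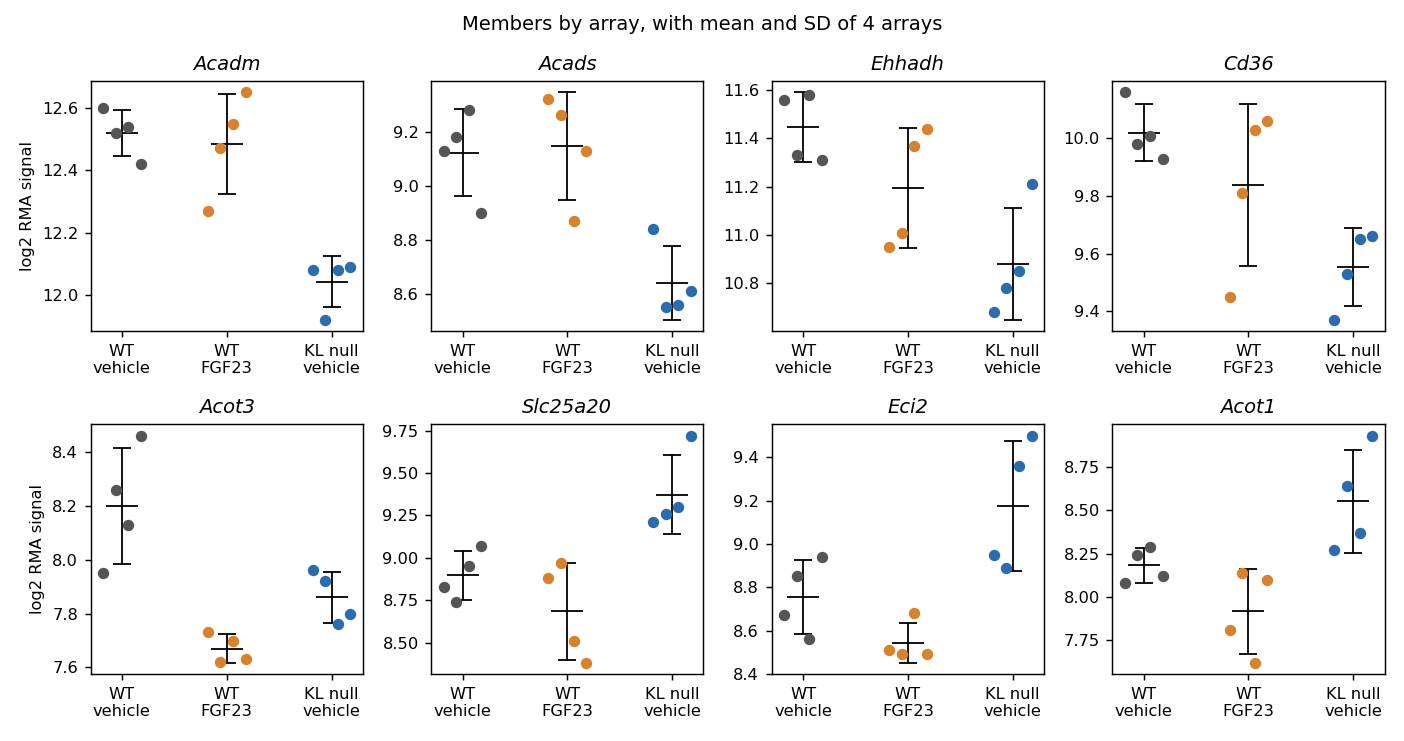
Log2 RMA signal (vertical axis) of 8 members on each array, with the mean and SD of 4 arrays per group; points run from replicate 1 on the left to 4 on the right. Acadm and Acads in KL null lie below every wild-type array, and Slc25a20 above.

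No gene of the later mitochondrial steps passed. Hadha and Hadhb, the 2 subunits of the trifunctional protein and neighbours on chromosome 5, and Echs1, Hadh and Acaa2 had differences from -0.13 to 0.06 in KL null and -0.18 to 0.06 after FGF23. The 2 Hadhb probe sets differed by 0.10 to 0.13 on every array, with the same differences between groups. Of the auxiliary enzymes that handle unsaturated chains, the isomerase Eci2 measured 8.67, 8.85, 8.56 and 8.94 in WT vehicle, 8.51, 8.49, 8.68 and 8.49 in WT FGF23, and 8.95, 8.89, 9.36 and 9.5 in KL null. Replicates 3 and 4 of KL null were the high ones, and replicate 2 lay within the vehicle range. The difference in KL null was 0.42 (SE 0.131, limma adjusted p = 0.0619). Eci1 and Decr1 were within 0.14 of vehicle.

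For the electron transfer flavoprotein and its oxidoreductase, the subunit gene Etfb was lower in KL null, at 10.91, 10.63, 10.57 and 10.76 against 10.89, 10.97, 11.08 and 10.95, a difference of -0.25 (limma adjusted p = 0.0976). Etfa differed by 0.12. Etfdh measured 10.47, 10.47, 10.53 and 10.47 in WT FGF23 against 10.61, 10.60, 10.66 and 10.71 in vehicle, at -0.16 (adjusted p = 0.304 by limma). These 2 groups did not overlap for Etfdh.

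Peroxisomal Ehhadh measured 11.56, 11.33, 11.58 and 11.31 in WT vehicle, 10.95, 11.01, 11.37 and 11.44 in WT FGF23, and 10.68, 10.78, 10.85 and 11.21 in KL null. KL null lay below vehicle on every array, and so did WT FGF23 replicates 1 and 2, whose array SD was smallest. It fell 1.48-fold in KL null (log2 -0.56, SE 0.133, limma adjusted p = 0.0171). The call was lost in 6 of 25 alternatives, among them without KL null replicate 2 (0.0538) or 3 (0.0527) and without WT vehicle replicate 1 (0.0600) or 3 (0.0644). The thiolase Acaa1a was at 8.48, 8.21, 8.15 and 8.11 in KL null against 8.38, 8.45, 8.60 and 8.50, a difference of -0.24 (limma adjusted p = 0.143). Its paralog Acaa1b, Hsd17b4 and Pex11a, which takes part in peroxisome division, did not pass.

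Thioesterases, which release the fatty acid from coenzyme A, held opposite signs in KL null. Acot3 measured 7.95, 8.26, 8.13 and 8.46 in WT vehicle, 7.73, 7.62, 7.70 and 7.63 in WT FGF23, and 7.96, 7.92, 7.76 and 7.80 in KL null. All FGF23 arrays lay below all vehicle arrays, while KL null replicate 1 overlapped vehicle replicate 1. After FGF23 the difference was -0.53 (SE 0.1, limma adjusted p = 0.0846), which passed in 2 of 25 alternatives (range 0.0389 to 0.612). In KL null it fell 1.27-fold (log2 -0.34, SE 0.1, limma adjusted p = 0.0497), a call lost in 17 of 25 alternatives with adjusted p up to 0.144. Acot1 measured 8.08, 8.24, 8.29 and 8.12 in WT vehicle, 7.81, 8.14, 7.62 and 8.10 in WT FGF23 and 8.27, 8.64, 8.37 and 8.93 in KL null. Its difference in KL null was 0.37 (limma adjusted p = 0.133). Acot4 measured 9.5, 9.35, 9.42 and 9.45 in WT vehicle, 9.24, 9.13, 9.30 and 9.15 in WT FGF23, and 9.35, 9.10, 9.19 and 9.25 in KL null. The FGF23 arrays lay below all vehicle arrays, and KL null replicate 1 reached the lowest of them. The differences were -0.23 (SE 0.0794) after FGF23 and -0.21 in KL null, with limma adjusted p of 0.263 and 0.133. Acot2 and Acot12 differed in KL null by 0.25 and 0.12. Acot2, Acot1, Acot4 and Acot3 lie next to each other on chromosome 12 with 0 protein-coding genes between neighbours, and cross-hybridisation among these close paralogs was not tested.

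Pdk4, the kinase that turns off pyruvate dehydrogenase when fat is the fuel, varied most. It measured 7.58, 8.92, 7.28 and 8.47 in WT vehicle, 7.29, 8.41, 8.40 and 7.59 in WT FGF23, and 7.16, 8.57, 8.61 and 7.67 in KL null. Its SD over arrays was 0.76, 0.57 and 0.71, where the median SD of the 37 members was 0.10, 0.16 and 0.14 in the same groups. Its differences of -0.14 and -0.06 (limma adjusted p = 0.872 and 0.958) had 95% intervals as wide as 0.81 either side. Angptl4, a secreted lipase inhibitor, measured 7.20, 8.24, 6.97 and 7.84 in WT vehicle, 7.64, 7.94, 7.55 and 6.93 in WT FGF23, and 7.34, 8.51, 8.64 and 8.75 in KL null. Replicates 2 and 4 of vehicle were the high ones for both genes. The Angptl4 difference in KL null was 0.75 (SE 0.315, limma adjusted p = 0.179), and its 95% interval ran from 0.08 to 1.42. Ucp3, dim at 3.88 to 4.62, did not pass.

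**Figure D3:**
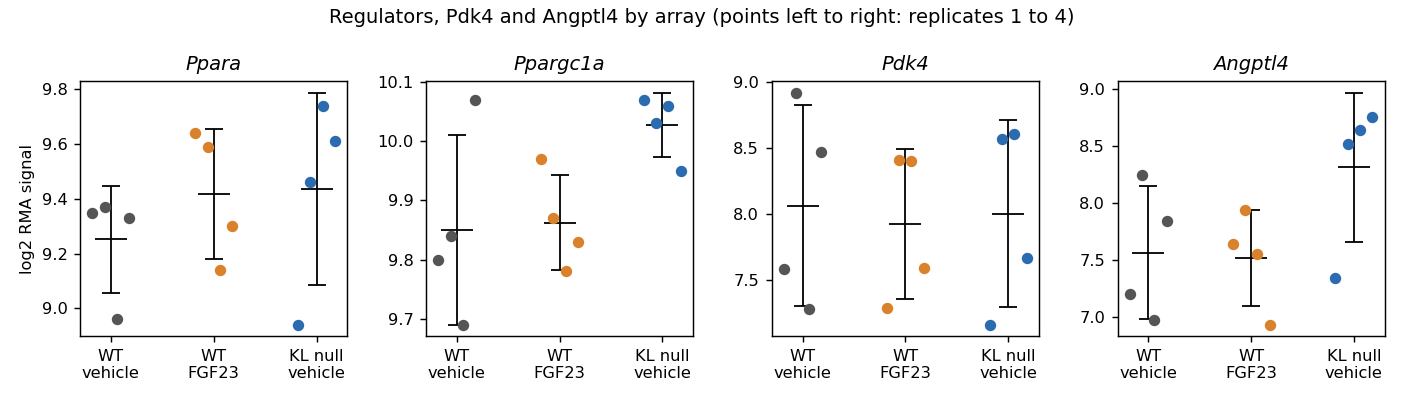
Log2 RMA signal (vertical axis) of Ppara, Ppargc1a, Pdk4 and Angptl4 on each array, with mean and SD of 4 arrays per group and replicates 1 to 4 from left to right. Pdk4 spans 7.28 to 8.92 within WT vehicle alone.

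**Figure D4:**
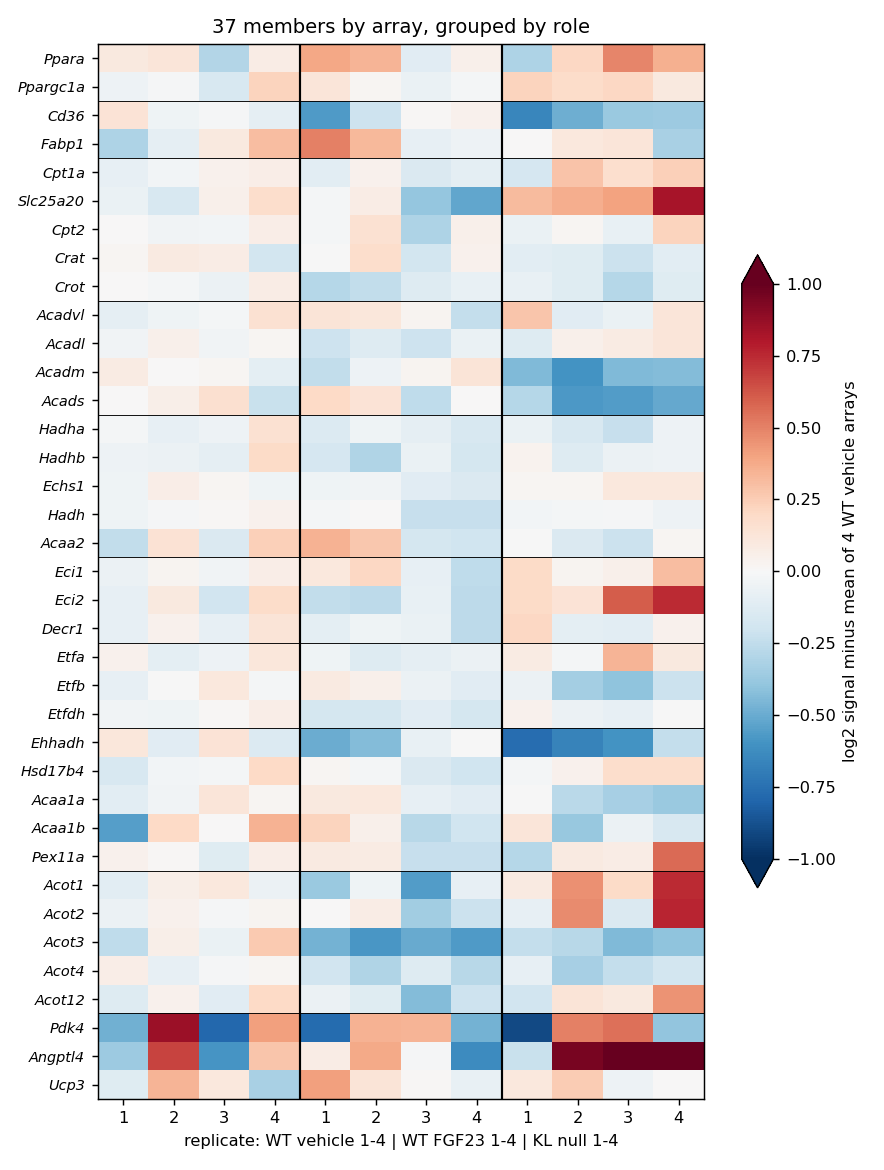
Log2 signal minus the mean of the 4 WT vehicle arrays for 37 members (rows, grouped by role) on 12 arrays (columns), with colour cut at 1 either way. Acadm, Acads, Ehhadh and Cd36 are blue in KL null, and Slc25a20 and Eci2 are red.

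Against WT FGF23, KL null had 3 members higher and 2 lower, where 12% of all genes were called, 6.72% higher and 5.25% lower. This comparison shares its arrays with both others and is given only beside them. Slc25a20 was higher by 0.69 (limma adjusted p = 0.00634), Eci2 by 0.63 (0.00664) and Acot1 by 0.64 (0.0100). Acadm was lower at -0.44 (0.00582) and Acads at -0.51 (0.00990). Without WT FGF23 replicates 1 and 2, the calls of Acads (0.135) and Eci2 (0.0657) were lost.

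Of 105 further pathway genes on 7 lists, 95 were measured. After FGF23 none passed by limma, and 10 had an unadjusted p below 0.05, where 15.4% of all genes did. In KL null 24 passed (25.3%), with 11 higher and 13 lower, against 8.01% of all genes and 15.1% of those in the top 25% of mean value. All 3 ketone body genes that passed were lower, out of 4. They were Bdh1 (10.09, 10.02, 10.18 and 9.71 in vehicle, 8.95, 8.84, 8.99 and 9.01 in KL null), Oxct1 and Slc16a1, with log2 differences of -1.05, -0.63 and -0.54. The call of Slc16a1 was lost in 12 of 25 alternatives. Bdh1 and Oxct1 interconvert and use ketone bodies, and Slc16a1 carries monocarboxylates. Of 20 further PPAR-alpha targets, 5 rose, 1 fell, the fatty acid transporter Slc27a4 (-0.43), and 14 did not pass. Of the 5 that rose, 4 were Cyp4a paralogs. The risers of largest change were the fatty acid hydroxylase genes Cyp4a12b, at 7.29 to 8.02 in KL null against 5.37 to 6.25 in vehicle, Cyp4a12a and Cyp4a14. Their log2 differences were 1.81, 1.36 and 0.66, with limma adjusted p of 6.9e-05, 0.00126 and 0.00771. Signal of these close paralogs may be shared between their probes, which was not tested. Cyp4a31, also on this list, had means of 10.63 in vehicle and 10.62 in KL null. Whether the Cyp4a rises reflect PPAR-alpha activity was not tested.

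Of 20 further peroxisomal genes, 2 rose (Hacl1, 0.62, and Abcd2, 0.63) and 4 fell, among them Pecr (-0.77), Nudt19 (-0.75) and Scp2 (-0.31). Scp2 lost its call in 14 of 25 alternatives. On the further list of mitochondrial beta-oxidation and acyl-CoA activation, 1 of 20 rose (Acot9, 0.47) and 1 fell (Acot7, -1.45). A place on this list does not locate a gene's product in mitochondria. Bbox1, which makes carnitine, rose by 1.02, and 1 of 4 carnitine supply genes was called. Of 17 nuclear receptors and coregulators, Ppard (-0.55) and Hnf4a (-0.35) fell. On the pyruvate dehydrogenase list 2 of 10 rose (Pdp1, 0.51, and Pdk1, 0.38) and 2 fell (Pdk3, -0.92, and Pdp2, -0.52). The call of Pdk1 was lost in 19 of 25 alternatives. Of the other pathway genes named, Slc27a4 lost its call in 5 alternatives (without WT vehicle replicate 1 or 3, without KL null replicate 2 or 3, and without KL null replicates 1 and 2). Acot9 lost it in 3 (without WT vehicle replicate 1 or 3, or KL null replicate 4), Hnf4a in 3 (without WT vehicle replicate 3, KL null replicate 2, or KL null replicates 1 and 2), Abcd2 in 1 and Bbox1 in 1.

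Cell type markers moved with genotype in the same arrays. In bulk RNA, fewer cells of a type and less RNA per cell cannot be told apart. Of 12 proximal tubule markers, 8 fell in KL null (median -0.39), and their mean level ran from 11.70 to 11.82 in KL null against 12.08 to 12.26 in vehicle. The straight segment list had 5 of 7 lower and 1 higher, with differences from -4.61 to 3.52, so it did not shift as a unit. Slc22a7 was at 5.33 to 5.93 in KL null against 9.97 to 10.91 in vehicle. Slc22a19 was at 7.29 to 9.05 against 11.49 to 11.65, and Slc7a13 at 8.23 to 11.33 against 5.65 to 6.07. What these large shifts stand for was not tested. Of 11 myeloid markers 7 rose and 1 fell, with mean levels of 7.06 to 8.34 against 6.58 to 6.85, and KL null replicate 1 was the lowest of its group. Of 6 injury genes 3 rose. Their mean level by array was 6.44 to 7.60 in vehicle, 6.61 to 7.49 in WT FGF23 and 7.15 to 8.02 in KL null, so the groups overlapped. The injury gene Havcr1 spread widely in wild type, at 4.59 to 10.0 in vehicle and 5.01 to 9.87 in WT FGF23. In KL null it was at 6.24 to 7.26. On the distal convoluted and connecting tubule list 2 of 6 rose and 1 fell, on the thick ascending limb list 1 of 6 rose, and on the podocyte list 1 of 5 fell. None of 9 collecting duct, 8 endothelial or 2 red blood cell genes passed. Of markers of other tissues, 1 of 6 liver genes rose and 2 fell (differences from -1.22 to 0.50), 1 of 7 adrenal genes rose, and 0 of 7 adipocyte and 0 of 7 muscle genes passed. After FGF23 no gene of the 14 lists passed by limma. Of the proximal tubule markers 1 had an unadjusted p below 0.05. All 12 proximal tubule markers had lower means than in vehicle (median -0.14), and the arrays did not overlap for 3 of them. Of the genes of highest mean value, as grouped above, 71.0% were lower (median -0.06). Arrays did not overlap for 7.01% of all genes. Lower means were not confined to proximal markers. All 6 distal convoluted and connecting tubule markers were lower (median -0.17), as were 4 of 5 podocyte and 8 of 11 myeloid markers. Medians were positive for the endothelial (0.09), injury (0.12), adipocyte (0.06), muscle (0.19) and adrenal (0.18) lists. As given above, 28 of the 37 members had lower means in the same comparison. The part of these shifts in the members' differences was not tested. By array, the mean of the 37 members deviated from the vehicle mean by -0.08 to 0.08 in vehicle itself, by -0.16 to 0.00 after FGF23 and by -0.09 to 0.09 in KL null.

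**Figure D5:**
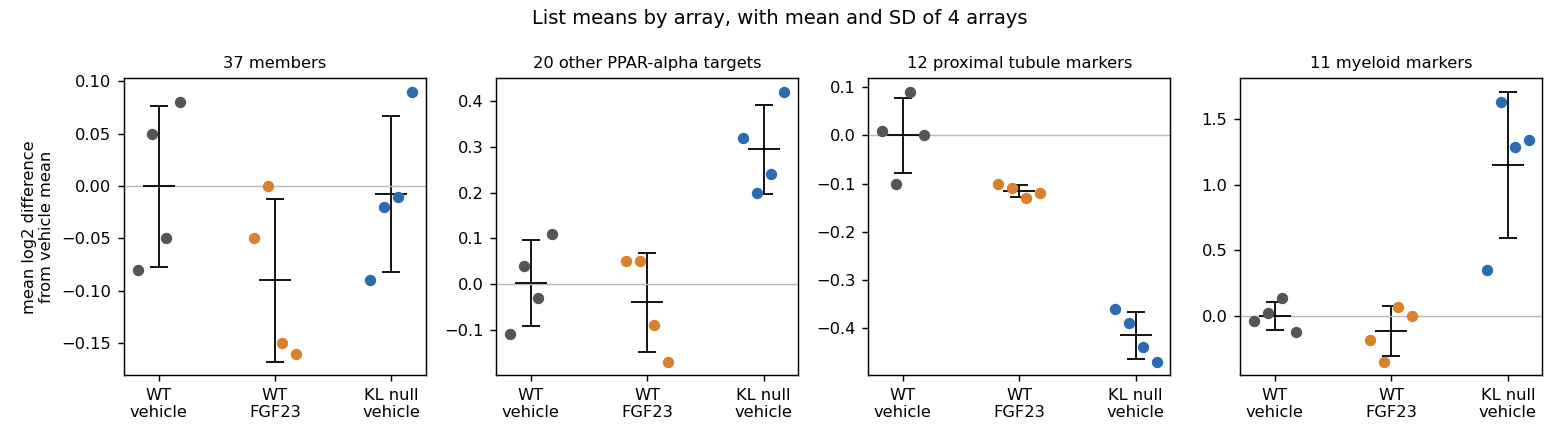
Mean log2 difference from the WT vehicle mean (vertical axis, a different scale in each panel) of 4 gene lists on each array, with mean and SD of 4 arrays per group. The 37 members overlap between groups, while proximal tubule markers lie lower and myeloid markers higher in KL null.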

How the data were processed

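Labelled whole-transcript target was hybridised to 12 Affymetrix arrays. The authors deposited log2 signals for each probe set, which the submitters' processing notes credit to RMA and Partek 6.2. RMA narrows differences at low signal, and no level was tested against that of another gene; rank in mean value serves only to call a gene dim and to form the top 25%. Of 28853 probe sets, the platform annotation gave 21789 a single gene symbol, 1621 several and 5443 none, and 21698 of the first kind matched GRCm38.p6 by Entrez identifier. Where a gene had several probe sets, the brightest on average was used, giving 19938 genes.

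One limma fit (3.58.1, R 4.3.3) of 3 group means over all 12 arrays, with 9 residual degrees of freedom, gave two-sided moderated tests, first tested on simulated data. A gene was called at a Benjamini-Hochberg adjusted p below 0.05 over all genes. Members, lists and tests were chosen with earlier results of these data known. Full values are given for members called against vehicle, for the 3 smallest p where fewer than 3 were called, and for Ppara, Ppargc1a, Cpt1a, Acadm and Pdk4. Members just outside the threshold, and those called between KL null and WT FGF23 alone, were added after their values were seen. Of the other pathway lists, up to 3 called genes in each direction are named. There were 25 alternatives. Those that drop only arrays of the group outside a comparison leave its difference unchanged. They alter only the shared estimate of spread and the adjustment. Replicate numbers were checked for pairing: of 12 same-numbered pairs across groups, 7 had a correlation over 0.1 (range -0.216 to 0.259). Same-numbered pairs of WT FGF23 and KL null ran from 0.143 to 0.259, and those with WT vehicle from -0.216 to 0.191. The main fit did not treat them as pairs, because the labels name no pairing. These correlations do not settle whether arrays of 1 number share anything. The number of arrays limits the precision.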

Additional observations from a re-analysis of the deposited data

Results flagged for a closer look

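In 7 of 111 sets of 4 arrays (6.31%), 1 array lay far from the other 3 by Dixon's criterion, which chance gives in about 1 in 20. The low ones were Ppara in WT vehicle replicate 3 (8.96, the others 9.33 to 9.37), Crat in KL null replicate 3 (9.5, the others 9.60 to 9.61), Acadm in KL null replicate 2 (11.92, the others 12.08 to 12.09) and Angptl4 in KL null replicate 1 (7.34, the others 8.51 to 8.75). The high ones were Hadhb in WT vehicle replicate 4 (11.33, the others 11.05 to 11.09), Eci2 in WT FGF23 replicate 3 (8.68, the others 8.49 to 8.51) and Etfdh in WT FGF23 replicate 3 (10.53, the others 10.47). Values are rounded to 2 decimals. Without KL null replicate 1, Angptl4 was called higher in KL null.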

How the results depend on the processing

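After FGF23, 0 members were called, and 1 (Acot3) with trended and robust moderation. In KL null, 5 members were called, against 8 with array spread as a covariate or with trended and robust moderation, 11 with array weights, 2 without moderation and 3 without KL null replicates 1 and 2. Leaving out 1 array gave 0 to 1 after FGF23 and 1 to 9 in KL null. Against WT FGF23, 5 were called, 10 with array weights and 8 without KL null replicates 1 and 2, and 5 to 11 with 1 array left out. The replicate block, which rests on numbers that the labels do not call pairs, gave 0 members after FGF23 and 4 in KL null. Of 12 arrays, 6 correlated best with their own number. Genes at an unadjusted p below 0.05 by limma after FGF23 were 3634 with the block against 3063. Calls over all genes were 6 with the replicate block against 17 after FGF23, and centring arrays on their medians turned the split in KL null from 713 higher and 885 lower to 428 and 1239. Some uncalled differences changed sign, and none of them passed in either direction. After FGF23, Ppara was -0.03 without WT FGF23 replicates 1 and 2. Acadm was 0.08 there, 0.04 after quantile normalization, 0.07 with array spread as a covariate and 0.01 with array weights. Ppargc1a was -0.06 centred, -0.07 with array spread, -0.12 over the mean of its probe sets and -0.05 without WT FGF23 replicates 1 and 2. In KL null, Pdk4 was 0.29 under array weights and 0.08 without KL null replicates 1 and 2. With 1 array left out, the FGF23 difference ran from -0.04 to 0.09 for Ppargc1a, -0.09 to 0.04 for Acadm and -0.40 to 0.15 for Pdk4, and the KL null difference of Pdk4 from -0.32 to 0.23. Causes were not tested. Scanner files were not used here, so signal could not be set against background.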
